A study of Mus musculus with 2 samples.

Results

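The angiotensin and endothelin system was followed through 7 genes of 55357 in the deposited tables: Agt, Agtr1a, Ace, Edn1, Ece1, Ednra and Ednrb. They were picked by gene symbol, and each symbol had 1 entry in both libraries. Hearts of C57BL/6 mice were measured by single-cell RNA sequencing on the 10x Chromium platform, in which mRNA is labelled droplet by droplet with barcodes and each molecule gets its own identifier (UMI, unique molecular identifier). A UMI thus stands for 1 captured molecule. One library came from Sham mice, whose operation left out the constriction of the aorta, and the other from mice with transverse aortic constriction (TAC), in which a ligature around the aortic arch loads the left ventricle with pressure. The TAC mice were 8 weeks old at surgery and kept for 6 weeks afterwards. The study states that its mice were all male, but its own model was isoproterenol infusion and it describes no TAC mice. The sources used here give no age for the Sham mice, and the design text of the deposit speaks of uninjured animals. The hearts were dissociated and the cells of 3 to 5 hearts were combined into each library. Each condition had a single library, so no test could be made, and every interval below covers counting error in these libraries only.

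Both peptide systems make a vasoconstrictor from a precursor. Angiotensinogen (Agt) is cleaved by renin to angiotensin I, angiotensin-converting enzyme (Ace) turns this into angiotensin II, and the type 1a receptor (Agtr1a) carries most of its effects on vessels and heart muscle in the mouse. Preproendothelin-1 (Edn1) is processed by furin-like proteases and by endothelin-converting enzyme 1 (Ece1). The endothelin A receptor (Ednra) constricts vessels from the muscle and mural side, and the endothelin B receptor (Ednrb) is best known on endothelium, where it clears endothelin and drives nitric oxide release. Agtr1a and Ednra signal mainly through the same G protein family, Gq.

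All 7 genes are annotated as protein coding in GENCODE M21 on the mouse build GRCm38. Agt (ENSMUSG00000031980) lies at chr8:124556534-124569706, Agtr1a (ENSMUSG00000049115) at chr13:30336441-30382867, Ace (ENSMUSG00000020681) at chr11:105967945-105989964 and Edn1 (ENSMUSG00000021367) at chr13:42301476-42307990. Ece1 (ENSMUSG00000057530) lies at chr4:137862237-137965229, Ednra (ENSMUSG00000031616) at chr8:77663031-77724464 and Ednrb (ENSMUSG00000022122) at chr14:103814625-103844402. Agt, Ednra and Ednrb are on the reverse strand.

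The promoters of Edn1 and Ednrb are shown because these were the members whose highest cell type was not the same in both libraries, fibroblasts and then endothelial cells for Edn1, endothelial cells and then macrophages for Ednrb. Each stretch is the reference sequence of RefSeq (GRCm38.p6) and runs 5′ to 3′ from 250 bases before the annotated start to 30 bases after it. The Edn1 stretch is chr13:42301226-42301505 on the forward strand, and its capitals mark a match to the GATA letters AGATAA, read on the opposite strand, at base 9 after the start. The Ednrb stretch is chr14:103843672-103843951 on the reverse strand and held none of the letters searched. It lies inside the GENCODE span of Ednrb given above, so the RefSeq start used here is downstream of the GENCODE start.
Edn1: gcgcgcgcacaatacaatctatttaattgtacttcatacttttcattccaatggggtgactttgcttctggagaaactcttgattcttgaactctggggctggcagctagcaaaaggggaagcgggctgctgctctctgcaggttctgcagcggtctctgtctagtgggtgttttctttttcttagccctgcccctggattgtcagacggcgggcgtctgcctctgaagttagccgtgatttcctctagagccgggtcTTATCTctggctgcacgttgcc
Ednrb: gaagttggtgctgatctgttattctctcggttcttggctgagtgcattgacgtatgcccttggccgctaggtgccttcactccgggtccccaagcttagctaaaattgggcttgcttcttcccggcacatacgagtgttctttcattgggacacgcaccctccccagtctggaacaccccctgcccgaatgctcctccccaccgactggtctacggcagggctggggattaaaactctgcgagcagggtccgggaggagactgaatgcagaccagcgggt

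Several sets of letters were searched on both strands of the 300-base RefSeq windows, which 6 of the 7 members have (Agtr1a was the one without). The AP-1 letters TGACTNA occurred in 13.9% of all 32851 promoter windows, AGATAA in 11.2% and the TATA box letters TATAAA in 13.6%. Edn1 had both the AGATAA match and an AP-1 match, TGACTAA, at base 37 after its start, beyond the printed stretch. Agt had the letters TATAAA on its own strand 30 bases before the start, and Ace had them on the opposite strand, 31 bases before it. These matches are a description of the letters and say nothing of a factor bound there.

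Depth was alike in both libraries, with 28146691 UMIs over 9935 barcodes in Sham (median 1964) and 29108986 over 9932 in TAC (median 2143). After removal of doublets 9475 and 9452 cells remained. Cells were clustered without the 7 genes and named from marker genes, and 6 types with at least 50 cells in each library were compared: cardiomyocytes (2520 Sham and 2401 TAC cells), fibroblasts (2295 and 2096), endothelial cells (1912 and 2252), macrophages (1451 and 1349), pericytes (1067 and 1043) and lymphatic endothelial cells (85 and 110). Smooth muscle cells (45 and 43) are given as values only. A level below is the number of UMIs of a gene per 1000000 UMIs of all genes in that cell type, given with its exact Poisson 95% interval. RNA that leaks between droplets gives every type a low level of every abundant gene. The median cardiomyocyte marker reached 5.36% to 10.6% of its cardiomyocyte level in the other compared types of the Sham library and 4.76% to 8.97% in those of the TAC library.

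**Figure D1:**
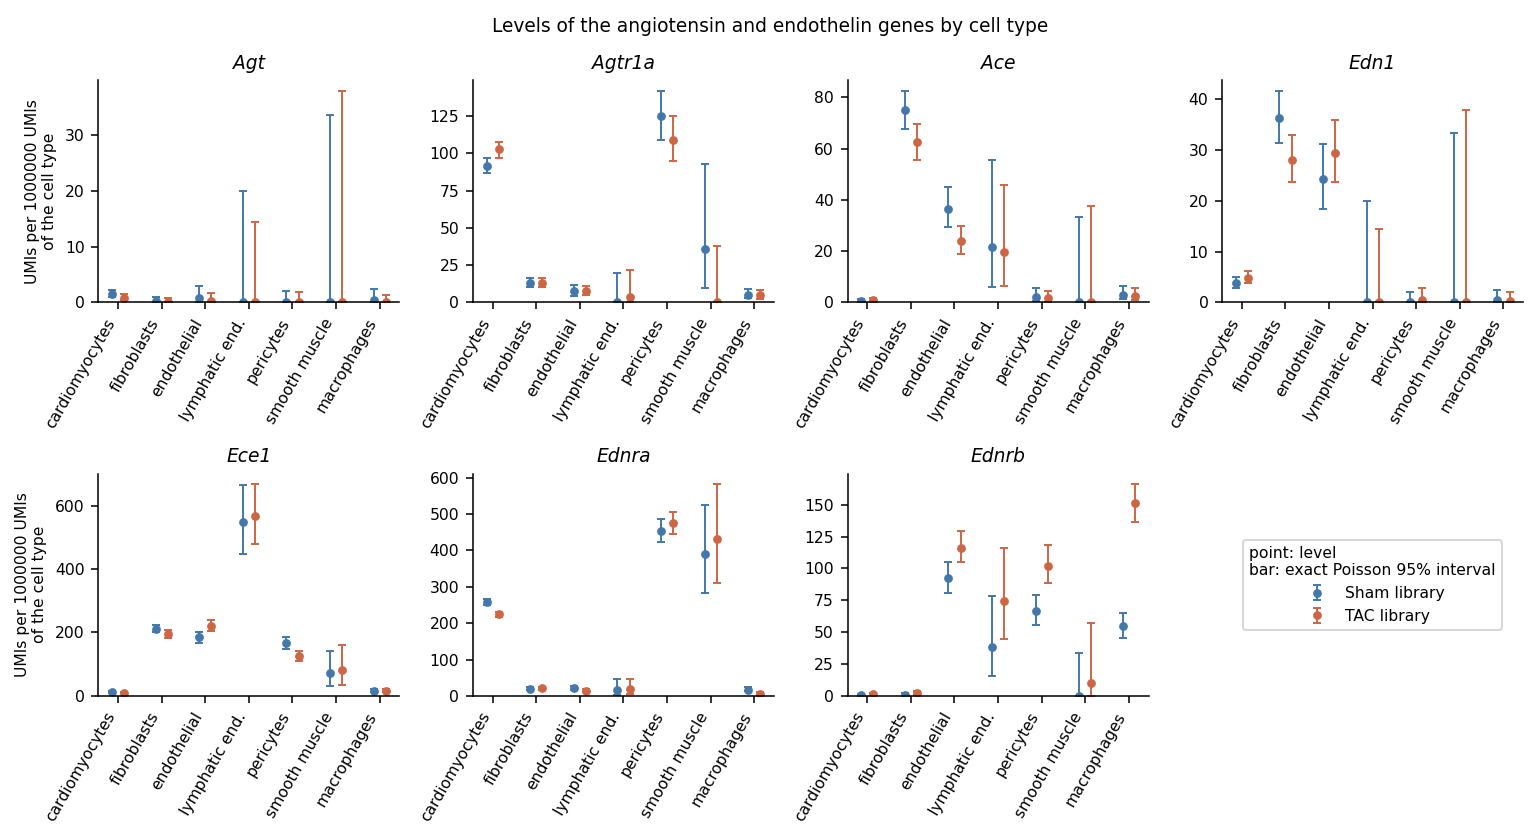
Levels of the 7 genes in 7 cell types of the Sham (blue) and TAC (orange) libraries, in UMIs per 1000000 UMIs of the type, with exact Poisson 95% intervals and a separate linear axis for each gene. Ligand, enzyme and receptor genes peaked in different types, with Ece1 highest in lymphatic endothelial cells, Ednra in pericytes, and Ednrb in endothelial cells in Sham but in macrophages in TAC.

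The 6 types divided the system between them. Fibroblasts held most Ace UMIs in both libraries and the largest share of Edn1 and Ece1 UMIs, cardiomyocytes and pericytes held the receptors Agtr1a and Ednra, and endothelial cells, pericytes and macrophages held Ednrb. In the Sham library 2 of the 7 members (Ace and Ece1) were at least 2-fold higher in one type than in the next, where 31.4% of all genes were. In the TAC library 3 of the 6 members with enough UMIs were (Ace, Ece1 and Ednra), against 30.5% of all genes. With so few members these counts do not set them apart from genes in general.

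**Figure D2:**
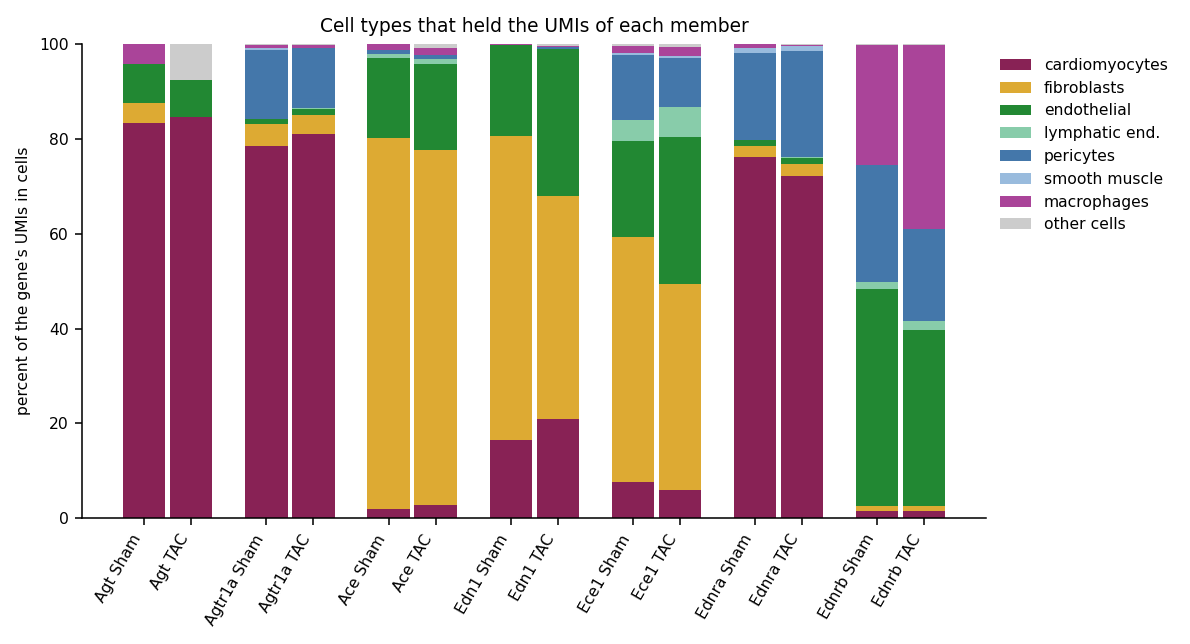
Percent of each gene's UMIs in cells that fell in each cell type, with 1 stacked bar per gene and library. Cardiomyocytes, which held 52.1% of all Sham and 49.3% of all TAC UMIs, made up most of the Agt, Agtr1a and Ednra bars, and fibroblasts most of the Ace bars.

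Between the libraries, a member was counted as higher or lower when its level differed at least 1.5-fold and it had at least 20 UMIs in one library. In cardiomyocytes 0 of 5 members were higher and 1 (Agt) was lower in TAC, where 15.2% of all genes were higher and 7.81% lower. In fibroblasts 0 of 5 members passed in either direction, against 12.8% and 5.92% of all genes. In endothelial cells 0 of 6 were higher and 1 (Ace) was lower, against 12.9% and 6.77%. In lymphatic endothelial cells only Ece1 had enough UMIs and it passed in neither direction, against 15.1% and 9.94%. In pericytes 1 of 4 (Ednrb) was higher and 0 were lower, against 10.1% and 8.22%. In macrophages 1 of 3 (Ednrb) was higher and 1 (Ednra) lower, against 11.6% and 11.1%. Most members in most types therefore stayed within 1.5-fold, and the medians of all genes, between 1.0 and 1.04, show no general shift.

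**Figure D3:**
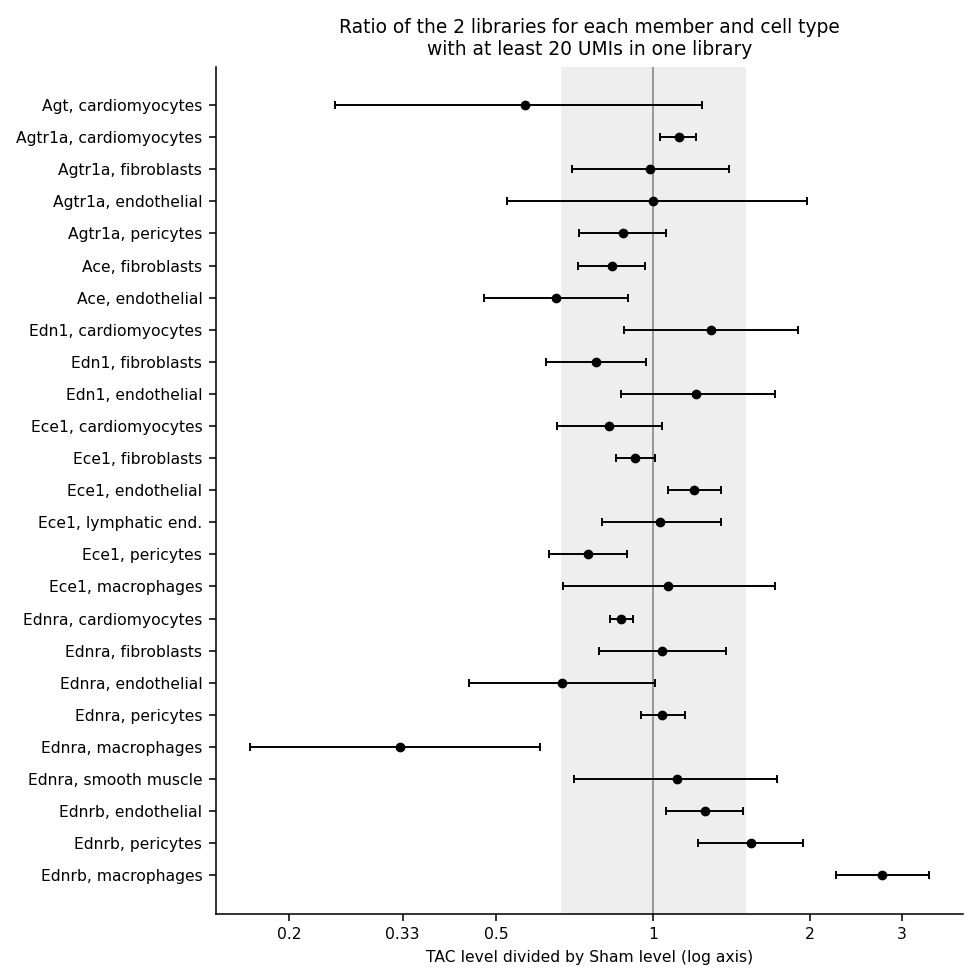
TAC level divided by Sham level, on a log axis, for each member and cell type with at least 20 UMIs in one library, with exact conditional binomial 95% intervals and the range within 1.5-fold shaded. Ednrb in macrophages (2.75) stood furthest to the right and Ednra in macrophages (0.327) furthest to the left.

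The precursor Agt was close to the detection limit. It had 24 UMIs in all Sham cells and 13 in all TAC cells, of which cardiomyocytes held 20 and 11. The cardiomyocyte level was 1.48 (0.905 to 2.29) in Sham and 0.838 (0.418 to 1.5) in TAC, a ratio of 0.566 with an interval of 0.245 to 1.24. No cardiomyocyte had more than 1 UMI, and at least 1 UMI was seen in 0.794% of Sham and 0.458% of TAC cardiomyocytes. In Sham the 2 UMIs of endothelial cells already gave a level of 0.820, and cardiomyocytes did not differ from it beyond counting error (1.81-fold, 0.439 to 15.9). A difference between the libraries was not detectable at this depth.

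Ace, which makes angiotensin II, was highest in fibroblasts and next in endothelial cells. Its fibroblast level was 74.9 (67.8 to 82.5) in Sham, from 408 UMIs, and 62.4 (55.7 to 69.6) in TAC, from 320 UMIs. The endothelial level was 36.5 (29.3 to 44.9) in Sham and 23.8 (18.8 to 29.7) in TAC. Both types had a lower Ace level in the TAC library, with ratios of 0.833 (0.717 to 0.966) and 0.652 (0.474 to 0.895). Fibroblasts exceeded endothelial cells 2.05-fold (1.63 to 2.61) in Sham and 2.62-fold (2.04 to 3.41) in TAC. With every cell thinned to 1000 UMIs, the share of fibroblasts with an Ace UMI was 6.95% in Sham and 5.12% in TAC, and that of endothelial cells 3.19% and 2.36%. Pericytes, with 4 and 3 UMIs, cardiomyocytes, with 10 and 12, and macrophages, with 7 in each library, held almost none.

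Within fibroblasts, Ace was highest in the subcluster named activated from markers such as Postn and Cilp, with a level of 105 (87.4 to 125) in Sham and 80.0 (62.7 to 101) in TAC. It was lowest in the adventitial subcluster, marked by Pi16 and Sema3c, at 52.6 (41.7 to 65.4) and 35.1 (25.4 to 47.3), and this subcluster was lower in TAC by a ratio of 0.667 (0.450 to 0.979). The order activated over adventitial was the same in both libraries. Within endothelial cells, the Sham arterial subcluster of 45 cells reached 302 (182 to 472), from 19 UMIs, which was 10.3-fold (5.83 to 17.2) the level of the other endothelial cells. Endocardial cells, which line the chambers, had only 3.21 in Sham and 6.10 in TAC, from 1 and 4 UMIs. In TAC no subcluster was named arterial, and the highest level, 64.6 (42.6 to 94.0), was in a subcluster of 359 cells led by Nebl, Btnl9, Arl15, Smad6 and Cxcl12, which was 3.64-fold (2.19 to 5.93) the rest.

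Of 16 other enzymes that cleave angiotensin precursors or degrade the peptides, between 1 and 11 had enough UMIs in a type. In cardiomyocytes 2 of 10 were higher and 1 lower in TAC with a median ratio of 1.06, against 15.2% and 7.81% of all genes. In fibroblasts 1 of 11 was higher and 0 lower with a median of 1.01, against 12.8% and 5.92% of all genes. In pericytes 0 of 10 were higher and 1 was lower with a median of 1.15, against 10.1% and 8.22%. In endothelial cells and macrophages 0 of 7 passed in either direction (medians 0.918 and 1.12). Of all genes 12.9% were higher and 6.77% lower in endothelial cells, and 11.6% and 11.1% in macrophages. In lymphatic cells Lnpep, the only one with enough UMIs, was higher (195 in Sham and 321 in TAC, 1.64-fold, 1.10 to 2.50), where 15.1% of all genes were higher. The renin gene Ren1 and the mast cell and neutrophil proteases Mcpt4 and Ctsg had 0 UMIs in cells of either library, and the chymase gene Cma1 had 2 in each. These enzymes were split among types. Pericytes were highest in Enpep, which trims angiotensin II to angiotensin III, at 135 in Sham and 169 in TAC (1.25-fold, 1.06 to 1.48). Fibroblasts were highest in Mme, the gene of neprilysin, at 83.9 and 73.7, and macrophages in the aminopeptidase Rnpep, at 204 and 192. Past 1.5-fold in other types were Mme in cardiomyocytes (10.2 and 16.8, 1.65-fold, 1.33 to 2.05), Enpep in fibroblasts (8.26 and 13.1, 1.58-fold, 1.07 to 2.36), Prcp in cardiomyocytes (3.04 and 5.56), Rnpep in pericytes (65.5 and 41.6) and Thop1 in cardiomyocytes (3.85 and 1.60).

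The receptor gene Agtr1a was read mainly in pericytes and cardiomyocytes. The pericyte level was 125 (109 to 142) in Sham, from 231 UMIs, and 109 (95 to 125) in TAC, from 210 UMIs, a ratio of 0.874 whose interval (0.721 to 1.06) included 1. The cardiomyocyte level was 91.8 (86.8 to 97.1) in Sham and 103 (97.2 to 108) in TAC, a ratio of 1.12 (1.03 to 1.21). Pericytes were therefore above cardiomyocytes in Sham (1.36-fold, 1.18 to 1.57), while in TAC both stood level within counting error (1.06-fold, 0.916 to 1.23). Cardiomyocytes held 78.5% of Agtr1a UMIs in Sham and 80.9% in TAC, and 31.7% and 35.5% of cardiomyocytes had at least 1. After thinning, 8.19% and 9.67% of cardiomyocytes and 10.0% and 9.53% of pericytes had one. Fibroblasts, at 13.2 and 13.1, were 6.95-fold below cardiomyocytes in Sham and 7.86-fold below in TAC. Endothelial cells (7.38 and 7.41) and macrophages (5.26 and 4.97) stood, as a share of the cardiomyocyte level, below the median cardiomyocyte marker in these types, where single markers in Sham endothelial cells spanned 3.53% to 47.0%. What part of these reads was leaked RNA was not tested.

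Within cardiomyocytes Agtr1a was lowest in the subcluster of each library with the highest Ankrd1 level. These subclusters were told apart by number and leading genes after the data had been seen. The Sham subcluster of 313 cells led by Ankrd1, a stretch-responsive gene, had an Agtr1a level of 56.1 (45.5 to 68.4), which was 0.578 of that in the other cardiomyocytes (0.465 to 0.711). The TAC subcluster of 171 cells led by Ankrd1 and Nppb, the gene of brain natriuretic peptide, had 57.0 (43.9 to 72.8), which was 0.534 of the others (0.409 to 0.686). In these subclusters Nppb stood at 102 and 209 and Ankrd1 at 1406 and 2342. Ednra was not low there, at 272 in Sham (1.07 of the other cardiomyocytes) and 243 in TAC (1.10).

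Among 7 other receptors and receptor partners of the angiotensin system, the type 2 receptor Agtr2 had 0 UMIs in cells and Agtr1b had 3 in each library. In cardiomyocytes and fibroblasts 0 of 4 passed 1.5-fold in either direction, with medians of 1.40 and 0.941. Of all genes 15.2% were higher and 7.81% lower in cardiomyocytes, and 12.8% and 5.92% in fibroblasts. In endothelial cells and pericytes 1 of 4, Mas1, was higher, with list medians of 1.18 and 1.09, where 12.9% and 10.1% of all genes were higher. Mas1, the receptor gene of angiotensin 1-7, had 6 UMIs in Sham and 22 in TAC pericytes, a level of 3.25 and 11.4 (3.52-fold, 1.39 to 10.6). Its endothelial level was 2.46 and 6.18 (2.51-fold, 0.973 to 7.64). The mineralocorticoid receptor gene Nr3c2, on which aldosterone acts, was highest in lymphatic endothelial cells (1200 and 1479) and was lower in TAC in macrophages, at 226 and 148 (0.653, 0.571 to 0.747), the 1 of 3 list members that passed there (list median 0.855), against 11.1% of all genes lower in macrophages.

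The ligand gene Edn1 was found in fibroblasts and endothelial cells. Over all cells it had 308 UMIs in Sham and 306 in TAC, a ratio of 0.967 (0.823 to 1.14). The fibroblast level was 36.2 (31.3 to 41.6) in Sham, from 197 UMIs, and 28.1 (23.7 to 33.0) in TAC, from 144 UMIs. The endothelial level was 24.2 (18.4 to 31.2) in Sham, from 59 UMIs, and 29.3 (23.7 to 35.9) in TAC, from 95 UMIs. Fibroblasts led endothelial cells 1.5-fold (1.11 to 2.04) in Sham, and in TAC the levels did not differ beyond counting error (endothelial over fibroblast 1.05, 0.798 to 1.36). One TAC endothelial cell held 13 of the 95 UMIs, and without the cell with most UMIs in each type fibroblasts were the higher type in TAC as well (26.1 and 25.4). The fibroblast ratio was 0.776 (0.622 to 0.967) and the endothelial ratio 1.21 (0.868 to 1.71). Cardiomyocytes had 3.78 and 4.87, from 51 and 64 UMIs, whereas pericytes had 0 and 1 UMI, macrophages 1 in each library and lymphatic endothelial cells 0.

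The lower fibroblast value in TAC depended on which fibroblasts were counted, in checks added after the data had been seen. Among fibroblasts with no UMI of the 10 endothelial markers, the Edn1 level was 33.5 (26.4 to 42.0) in 1093 Sham cells and 36.5 (28.8 to 45.7) in 966 TAC cells, a ratio of 1.09 (0.783 to 1.52). Among those with such a UMI it was 38.0 (31.6 to 45.4) and 22.2 (17.2 to 28.1). The division was mostly one by a single marker, Tek, an angiopoietin receptor gene, which had a UMI in 952 Sham and 901 TAC fibroblasts and reached 45.3% and 40.0% of its endothelial level there. The median marker reached 1.10% and 1.15%. Without a UMI of the 9 other endothelial markers, fibroblasts had 38.0 (32.4 to 44.3) and 28.3 (23.3 to 34.0), a ratio of 0.744 (0.580 to 0.953). The direction thus turned with Tek and not with the other markers, and fibroblasts without a Tek UMI, at 32.0 and 33.0, were also shallower, with medians of 1905 and 2062 UMIs against 2570 and 2541 in those with one. The part of depth in this was not tested. Both libraries had a fibroblast subcluster led by Nkain2, and it had the highest Edn1 level of the fibroblast subclusters in each, 65.6 in Sham (2.51-fold the other fibroblasts, 1.88 to 3.36) and 51.1 in TAC (2.41-fold, 1.70 to 3.39). It held 91 of 197 fibroblast UMIs in Sham and 60 of 144 in TAC. Adventitial fibroblasts had 17.1 and 11.4.

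Endothelial Edn1 was uneven among subclusters. In Sham the endocardial subcluster of 178 cells had 70.5 (44.2 to 107), which was 4.06-fold (2.28 to 7.06) the level of other endothelial cells. The capillary subcluster of 1064 cells had 17.4 (10.9 to 26.4), and each of these subclusters held 22 of the 59 endothelial UMIs. The small arterial subcluster held 4 UMIs, 2.75-fold the rest with an interval (0.724 to 7.45) that included 1. In TAC the subcluster led by Nebl, Btnl9, Arl15, Smad6 and Cxcl12 had 108 (78.5 to 144) and held 45 of the 95 endothelial UMIs, 6.07-fold (3.97 to 9.27) the rest. This is the same subcluster that had the most Ace, and it stayed unnamed. The arterial genes Gja5 and Sema3g were read there at 148 and 124, against 318 and 509 in the Sham arterial subcluster. The capillary marker genes Btnl9 and Rgcc were read there at 713 and 256. The largest TAC subcluster, 1057 cells led by Adamts9 and Bmp6, had only 5 UMIs and a level of 3.72 (1.21 to 8.67). Endocardial Edn1 was 41.2 (27.1 to 59.9) in TAC, a ratio of 0.584 (0.320 to 1.08) to Sham. It was 1.56-fold the level of the other TAC endothelial cells, with an interval (0.962 to 2.48) that included 1.

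**Figure D4:**
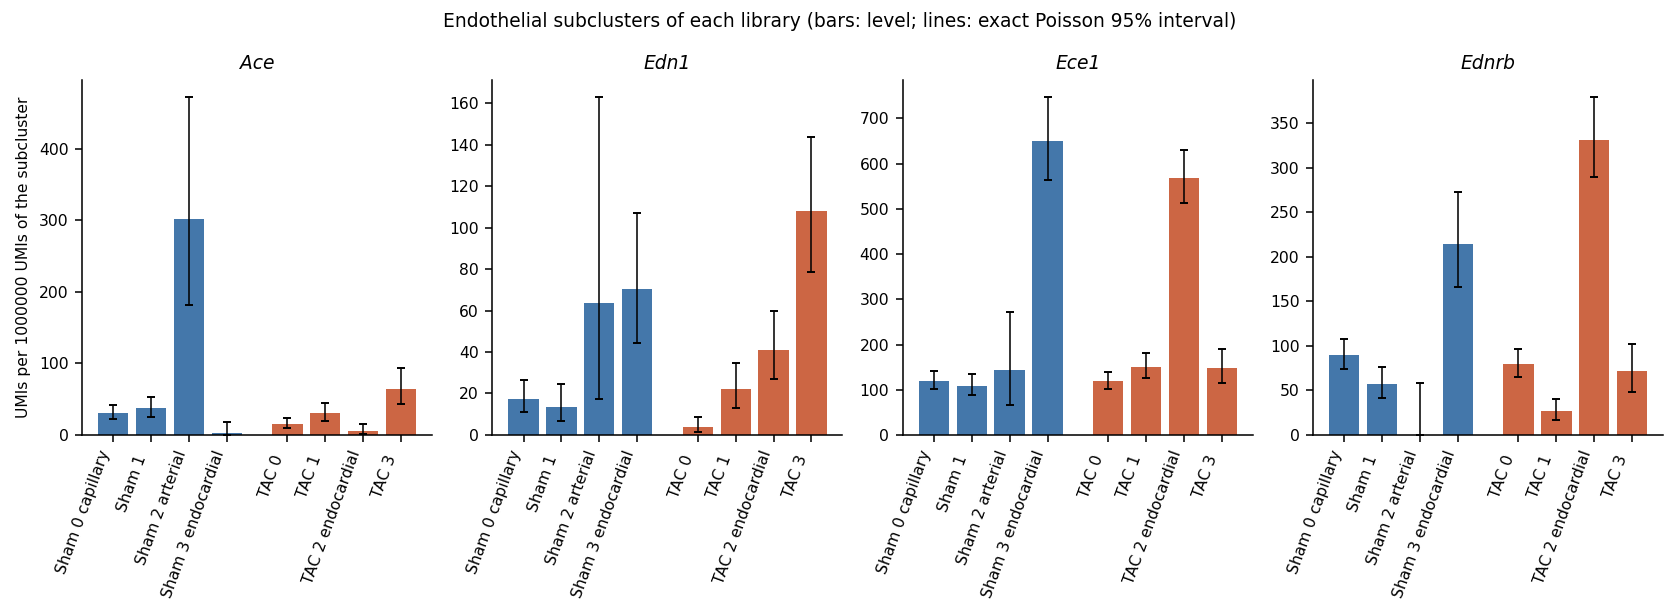
Levels of Ace, Edn1, Ece1 and Ednrb in the endothelial subclusters of the Sham (blue) and TAC (orange) libraries, in UMIs per 1000000 UMIs of the subcluster, with exact Poisson 95% intervals. Endocardial cells stood above the other subclusters in Ece1 (651 and 569) and Ednrb (215 and 332) in both libraries, while Ace was highest in the Sham arterial subcluster (302).

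Ece1, the enzyme that releases mature endothelin, was highest in lymphatic endothelial cells. Its level there was 548 (447 to 666) in Sham, from 101 UMIs in 85 cells, and 567 (479 to 668) in TAC, from 145 UMIs in 110 cells, and 63.5% and 62.7% of these cells had at least 1 UMI. The ratio was 1.03 (0.797 to 1.35). Lymphatic cells were 2.58-fold (2.08 to 3.17) above the next type in Sham and 2.55-fold (2.12 to 3.06) above it in TAC. Fibroblasts had 212 and 196 (ratio 0.924, 0.848 to 1.01), endothelial cells 185 and 222 (1.20, 1.07 to 1.35) and pericytes 166 and 125 (0.751, 0.632 to 0.892). Among pericytes with no endothelial marker UMI the levels were 162 and 125. Cardiomyocytes (12.7 and 10.4) and macrophages (15.8 and 16.8) were low, although the cardiomyocyte levels were 41.0 and 27.9 with cells typed one by one from their markers.

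Endocardial cells had Ece1 levels near those of lymphatic cells. They had 651 (564 to 747) in Sham and 569 (513 to 629.6) in TAC, which was 5.59-fold and 4.25-fold the level of the other endothelial cells. Between the libraries the endocardial ratio was 0.874 (0.735 to 1.04), so the higher value of all endothelial cells in TAC was not seen inside the endocardial subcluster. The endocardial subcluster held 203 of the 451 endothelial Ece1 UMIs in Sham and 373 of 719 in TAC, and had 178 and 298 cells. Activated fibroblasts had 192 in Sham and 141 in TAC (0.738, 0.589 to 0.920).

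Among 9 other endothelin genes, Edn2 had 1 and 2 UMIs in cells and Kel had 0 in both libraries. In cardiomyocytes 1 of 6 was higher and 1 lower with a list median of 1.0, in fibroblasts and in endothelial cells 1 of 5 was higher (medians 0.998 and 1.13), in pericytes 1 of 4 (1.01), and in lymphatic cells and macrophages 0 of 3 passed (1.07 and 0.913). Over all genes the higher share was 15.2% in cardiomyocytes (7.81% lower), 12.8% in fibroblasts, 12.9% in endothelial cells and 10.1% in pericytes. In lymphatic cells 15.1% of all genes were higher and 9.94% lower, and in macrophages 11.6% and 11.1%. Thus 1 gene of such a short list is near the background. Edn3, which encodes the endothelin that prefers the B receptor, had 22 Sham and 4 TAC UMIs in cardiomyocytes, a level of 1.63 and 0.305 (0.187, 0.0468 to 0.551). The proprotein convertase Pcsk5 was higher in TAC in endothelial cells, at 52.0 and 99.7 (1.92-fold, 1.56 to 2.37), and in cardiomyocytes, at 5.48 and 9.82 (1.79-fold, 1.34 to 2.42). In pericytes it stood at 16.2 and 25.5 (1.57-fold), with an interval of 0.977 to 2.56 that included 1. Ece2 was higher in fibroblasts, at 1.84 and 4.48 (2.44-fold, 1.12 to 5.75). Nos3, the endothelial nitric oxide synthase that Ednrb engages, was highest in endothelial cells (237 and 271), and Gna12, a G protein subunit, in macrophages (298 and 311).

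Ednra was read mainly in pericytes, smooth muscle cells and cardiomyocytes. The pericyte level was 454 (424 to 486) in Sham, from 839 UMIs, and 474 (444 to 506) in TAC, from 911 UMIs, a ratio of 1.04 (0.949 to 1.15). Smooth muscle cells had 389 and 430.4, from 43 and 42 UMIs, and did not differ from pericytes beyond counting error. The cardiomyocyte level was 258 (249 to 266) in Sham and 224 (216 to 232) in TAC, a ratio of 0.869 (0.827 to 0.913). The TAC value was thus lower in cardiomyocytes and about equal in pericytes, and pericytes exceeded cardiomyocytes 1.76-fold (1.63 to 1.90) in Sham and 2.12-fold (1.96 to 2.28) in TAC. After thinning, 20.6% of Sham and 17.8% of TAC cardiomyocytes and 32.3% and 33.6% of pericytes had an Ednra UMI. Fibroblasts (19.6 and 20.5) and endothelial cells (21.7 and 14.5) lay, as a share of the cardiomyocyte level, within the range of the single cardiomyocyte markers in these types.

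The cardiomyocyte difference in Ednra was uneven among subclusters. In TAC a subcluster of 475 cells led by G0s2, Cacna2d3 and Cox6a2 had 162 (145 to 180.1), which was 0.687 of the other cardiomyocytes (0.611 to 0.771). Another TAC subcluster, of 479 cells, stood at 0.850 of the others (0.774 to 0.932), and the remaining ones at 1.10 to 1.17. The Sham subclusters ranged from 252 to 272. In macrophages Ednra had 40 Sham and 15 TAC UMIs, a level of 17.5 and 5.74 (0.327, 0.168 to 0.606). The median cardiomyocyte marker in macrophages was also lower in TAC, at 5.23% of its cardiomyocyte level against 8.19% in Sham, and its part in the macrophage value was not tested. The gene 4933431K23Rik overlaps Ednra on the opposite strand, and the sources used here do not say if reads were assigned by strand. Its UMIs amounted to 43.0% of the Ednra UMIs in Sham cardiomyocytes and 64.8% in TAC, and to 17.5% and 37.7% in pericytes, so that some reads of one gene may have been given to the other. Its level was higher in TAC in both types, at 111 and 145 in cardiomyocytes and 79.6 and 178 in pericytes. What part of the lower Ednra level of TAC cardiomyocytes came from such assignment was not tested.

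Over all cells, Ednrb was the member with the largest ratio between the libraries, in either direction. Over all cells it had 495 UMIs in Sham and 1017 in TAC, a ratio of 2.0 (1.80 to 2.23). The TAC level was above the Sham level in each of the 6 types. It was so beyond counting error only in macrophages, pericytes and endothelial cells. In macrophages the level was 54.8 (45.6 to 65.2) in Sham, from 125 UMIs in 73 of 1451 cells, and 151 (136 to 166) in TAC, from 394 UMIs in 176 of 1349 cells, a ratio of 2.75 (2.24 to 3.39). In pericytes it was 66.6 (55.3 to 79.5) and 102 (88.7 to 118), a ratio of 1.54 (1.22 to 1.94), which fell short of 1.5-fold (1.48) with cells typed one by one from their markers. In endothelial cells it was 92.6 (80.9 to 105) and 116 (105 to 129), a ratio of 1.26 (1.06 to 1.49). Macrophages thus stood below endothelial cells in Sham and above them in TAC (1.29-fold, 1.12 to 1.49). Lymphatic endothelial cells had 7 and 19 UMIs, a level of 38.0 and 74.3 (1.96, 0.787 to 5.51). Cardiomyocytes had 8 and 15 UMIs (1.93, 0.768 to 5.25) and fibroblasts 5 and 11 (2.34, 0.748 to 8.58). The levels of these types stayed at or below 2.14 in both libraries. After thinning, the share of macrophages with an Ednrb UMI was 4.12% and 8.52%, that of pericytes 5.35% and 7.43% and that of endothelial cells 8.30% and 9.23%.

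Endothelial markers were measured beside the macrophage values. The median endothelial marker in macrophages reached 1.51% of its endothelial level in Sham and 1.31% in TAC, while macrophage Ednrb reached 59.1% of its endothelial level already in Sham. Macrophages with an Ednrb UMI had a summed level of the 10 endothelial markers of 86.0 in Sham and 101 in TAC, against 171 and 160.2 in macrophages without one. The summed level of the 7 lymphatic markers went the other way, at 242 and 423 with an Ednrb UMI and 155 and 237 without. Nearly all of it was Lyve1, a gene that macrophages also express, and the other 6 markers together had 4 UMIs in each library in macrophages with an Ednrb UMI, a level of 21.5 and 7.46 against 23.8 and 29.8 without. In macrophages with no endothelial marker UMI, Ednrb was 61.8 (50.8 to 74.5) in Sham and 154 (137 to 172) in TAC, a ratio of 2.49 (1.99 to 3.12). Pericytes selected in the same way had 66.0 (51.9 to 82.7) and 85.9 (70 to 104), and there the ratio of 1.30 had an interval (0.957 to 1.78) that included 1. Macrophages with an Ednrb UMI also had more UMIs in all, with medians of 2368 and 2766 against 1295 and 1560.

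Nearly all macrophage Ednrb lay in 1 subcluster of each library, the one with the highest level of Lyve1, a hyaluronan receptor gene of perivascular macrophages and lymphatic endothelium. This division was made after the data had been seen. The subcluster had 654 cells in Sham (45.1% of macrophages) and 560 in TAC (41.5%), and held 114 of 125 and 366 of 394 Ednrb UMIs. Its Ednrb level was 85.8 (70.8 to 103) in Sham and 252 (227 to 279) in TAC, a ratio of 2.93 (2.37 to 3.65), and up to 7 and 12 UMIs were read in a single cell. The remaining macrophages had 11.5 and 24.1, from 11 and 28 UMIs (2.09, 1.01 to 4.66). Beside Ednrb, the subcluster had more Lyve1 in TAC (209 and 359.6) and more Timd4, a phagocytic receptor gene (82.8 and 204), and less Cd163 (1688 and 1251). The antigen presentation gene H2-Aa (46.7 and 28.9) and the monocyte receptor gene Ccr2 (14.3 and 10.3) were low there and higher in the remaining macrophages (247 and 234 for H2-Aa, 141 and 177 for Ccr2). A further TAC subcluster of 295 cells, led by Dmd and Fhl2 and with the muscle gene Ttn among its leading genes, had an Ednrb level of 59.2, with Lyve1 at 203 and Timd4 at 121, close to or above the Sham subcluster with the highest Lyve1. When every subcluster with a Lyve1 level above that of all Sham macrophages (138) was counted, such cells made up 45.1% of Sham and 63.4% of TAC macrophages (654 and 855 cells), and their Ednrb level was 85.8 and 214, a ratio of 2.49 (2.02 to 3.10). The remaining macrophages then had 11.5 and 8.69 (0.754, 0.248 to 2.13). Which share of macrophages these cells made up in TAC thus depended on the grouping, while their Ednrb level was higher in TAC under both groupings. The libraries were clustered separately and the Lyve1 cut was taken from Sham. Lyve1 itself was higher in TAC in the cells above the cut (209 and 329) and in the rest (38.8 and 72.0). The part of either in the share was not tested.

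**Figure D5:**
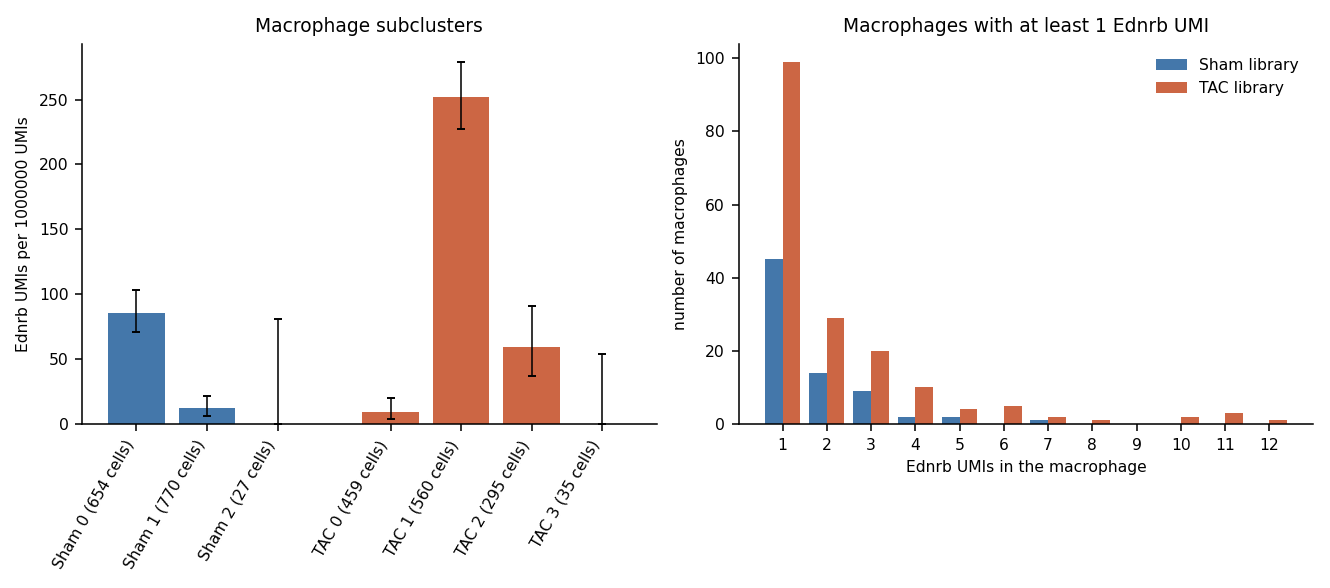
Left, Ednrb level in UMIs per 1000000 UMIs in each macrophage subcluster of the Sham (blue) and TAC (orange) libraries, with exact Poisson 95% intervals. Right, number of macrophages by their Ednrb UMIs, where 73 Sham and 176 TAC macrophages had at least 1 and the highest cell had 7 and 12.

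In endothelial cells Ednrb also followed a subcluster. Endocardial cells had 215 (166 to 273) in Sham and 332 (289.8 to 379.6) in TAC, 2.88-fold and 5.40-fold the level of the other endothelial cells, and the endocardial ratio between the libraries was 1.55 (1.17 to 2.07). They held 67 of 226 endothelial UMIs in Sham and 218 of 377 in TAC. The other endothelial subclusters held 113, 46 and 0 UMIs in Sham and 107, 22 and 30 in TAC. The higher value of all endothelial cells in TAC was thus not seen outside the endocardial subcluster. The Sham capillary subcluster had 89.6 (73.9 to 108), and the Sham arterial subcluster had 0 UMIs, which allows a level of up to 47.7. Both pericyte subclusters had alike values within a library, 69.9 and 64.6 in Sham and 99.9 and 105 in TAC.

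Downstream of Agtr1a and Ednra, 16 genes of the Gq pathway were followed. In cardiomyocytes 1 of 14 was higher and 2 lower in TAC (median 0.933), in pericytes 1 of 15 was higher and 2 lower (0.983), and in fibroblasts 1 of 14 was higher (0.939). In endothelial cells 0 of 13 passed in either direction (0.949), in lymphatic cells 2 of 9 were lower (0.856), and in macrophages 1 of 14 was lower (0.871). Over all genes 15.2% were higher and 7.81% lower in cardiomyocytes, 10.1% and 8.22% in pericytes, and 12.9% and 6.77% in endothelial cells. In fibroblasts 12.8% were higher, and 9.94% and 11.1% were lower in lymphatic cells and macrophages. The Gq list thus did not stand out by these counts. The phospholipases Plcb4 (3570 in Sham and 3024 in TAC) and Plcb1 (2686 and 2548) and the calcium release channel Itpr2 (766 and 719.9) were highest in endothelial cells, and the kinase Prkcd in macrophages (429.8 and 349.6). Prkcd was lower in TAC cardiomyocytes, at 25.8 and 13.3 (0.516, 0.428 to 0.620), and so was the G protein gene Gna11, at 12.7 and 7.92. Gna11 was lower in pericytes as well (31.9 and 18.2). Rcan1, a calcineurin target, was higher in pericytes (28.2 and 43.2), the regulator Rgs3 stood at 17.5 and 11.5 in macrophages (0.655, 0.394 to 1.08, an interval that included 1), and Plcb1 was lower in lymphatic cells (271 and 160.4). The other genes counted were named after their values were seen: Rgs2, a brake on Gq signalling, in cardiomyocytes (16.9 and 30, 1.78-fold, 1.51 to 2.10) and fibroblasts (2.75 and 5.46), Trpc6 in pericytes (92.6 and 55.7) and Itpr2 in lymphatic cells (190.0 and 117, with an interval of the ratio, 0.366 to 1.04, that included 1).

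Across the 12 points of 6 types in 2 libraries, the receptor genes Agtr1a and Ednra had the most alike patterns of the members described here (Pearson r of log2 levels 0.89), followed by Ace and Ece1 (0.73) and by Ace and Edn1 (0.60), while Ednra and Ednrb did not go together (-0.25). These are descriptions over few points that share libraries, without a p. Among 13134 genes, the patterns nearest to each member were those of Cap2, 4933431K23Rik and Rbpms2 for Agtr1a (0.980, 0.951 and 0.947) and of Fbln2, Fmo2 and Adamtsl3 for Ace (0.996, 0.984 and 0.965). For Edn1 they were Dlg2, Mecomos and Ptpru (0.951, 0.941 and 0.931), and for Ece1 Gm49767, C77080 and Ebf4 (0.980, 0.979 and 0.979). For Ednra they were Adcy6, Cstdc2 and Art3 (0.980, 0.960 and 0.958), and for Ednrb Smagp, Sh3pxd2a and Ggta1 (0.976, 0.961 and 0.95).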

How the data were processed

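Per the labels, Sham and TAC hearts were dissociated and libraries were made with the 10x 3-prime kit. The authors counted UMIs with Cell Ranger (version 7.1.0 in the submitters' processing notes) and deposited the raw counts of each gene in each barcode. The genome build and the counting of introns and strand are not given in the sources used here. Of the 55357 gene identifiers, 94.1% were in GENCODE M21, which was used for positions. The deposited barcodes all held at least 500 UMIs.

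Python 3.11.15 was used with numpy 2.4.6, pandas 2.3.3 and scipy 1.17.1 for the values, scanpy 1.11.5, igraph 0.11.9 and anndata 0.12.19 for the clustering and matplotlib 3.10.9 for the plots. Barcodes with fewer than 200 detected genes (1 in each library) were removed, as were the doublets that Scrublet marked at an expected rate of 0.8% per 1000 cells (459 Sham and 479 TAC barcodes, 4.62% and 4.82%). The libraries shared 32 barcode sequences, which were kept. Each library was clustered by itself (Leiden, seed 1, resolution 1, 2000 variable genes, 30 principal components, 15 neighbours) without the members, the pathway genes and the mitochondrial genes. A cluster was named from at least 3 of a type's markers, each seen in 10% or more of the cluster and at a log2 fold of 1 or more over other cells. Subclusters were made at resolution 0.5.

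Summed UMIs of a type were expressed per 1000000 UMIs (exact Poisson 95% intervals), shares with Clopper-Pearson intervals and ratios between libraries or types with exact conditional binomial intervals. A count of 0 was given a limit of 3 counts. Shares of cells with a UMI were compared after thinning each cell to 1000 UMIs, leaving out shallower cells. Named genes were the 7 members, at most 8 genes per pathway list that passed 1.5-fold with at least 20 UMIs in one library or were at least 2-fold higher in one type in both libraries, and the 3 genes most alike to a member by Pearson r of log2(level + 1). Genes of the lists with few or 0 UMIs, subcluster leading genes and the macrophage genes Lyve1, Timd4, Cd163, H2-Aa and Ccr2 were named after their values were seen. Some genes of the lists and the values of some subclusters are not reported here. The members and lists were chosen with earlier results of these data known. The steps were tested on simulated data. The alternatives tried were stricter filters, no removal of doublets, other resolutions, joint clustering, typing each cell by its own markers, clustering with the members, other ways to scale or average, and leaving out the cell with most UMIs.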

Additional observations from a re-analysis of the deposited data

How the results depend on the processing

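With 1 library per condition, the numbers describe these libraries, and animals, age and handling cannot be told apart from TAC. Ratios between the libraries were taken for each member in its highest Sham type, and for Ednrb also in macrophages and pericytes. These 9 ratios were recomputed 114 times, and 112 values lay within the counting interval of the main ratio. The ratio of Edn1 in fibroblasts reversed from 0.776 to 1.09 when only cells without a UMI of the 10 endothelial markers were counted, a choice made after seeing the data, and was 0.744 when only the 9 markers other than Tek were used. The ratio of Ednra in pericytes moved from 1.04 to 1.16 as a mean over cells. Over all cells of a type Ednrb ranged from 2.41 to 2.83 in macrophages, from 1.48 to 1.54 in pericytes and from 1.11 to 1.26 in endothelial cells, and Ace in fibroblasts from 0.816 to 0.837. Ednrb in pericytes was 1.30 among cells without an endothelial marker UMI, and this value and the 1.48 ended its place past 1.5-fold. The highest type stayed the same for every member and library under the alternatives, except Edn1 in TAC, which was higher in fibroblasts than in endothelial cells with cells typed one by one from their markers (29.9 and 28.4), as a mean over cells (28.0 and 23.5) and without the 1 cell with most UMIs (26.1 and 25.4). The share of all gene and type combinations past 1.5-fold was 35.2% with at least 1 UMI in each library and 14.8% with at least 50 UMIs in one, and 7.56% passed a fold of 2. Of 495 levels 25 moved beyond counting error and 8 by over 1.5 times. With each cell typed by its own markers these were Ece1 in cardiomyocytes (41.0 in Sham and 27.9 in TAC), Edn1 in Sham cardiomyocytes (7.70), Ednra in Sham macrophages (11.1) and Agtr1a in TAC endothelial cells (4.79). With no doublets removed they were Ece1 in macrophages (24.0 and 27.4) and Agtr1a in TAC endothelial cells (12). No paired analysis was possible because a condition had 1 library only.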
